A study of Drosophila melanogaster with 1908 samples.

Results

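Candidate glial nuclei of Drosophila melanogaster embryos from 10 h of development onward were picked out of a single-nucleus RNA survey of whole embryos. A nucleus was taken if its inferred age was 10 h or more, if it held at least 1 UMI of repo, and if it held a UMI of at least 1 of 5 partner genes, moody, wrapper, nrv2, Eaat1 and loco. A UMI (unique molecular identifier) is a tag that counts 1 captured RNA molecule. Of 200893 nuclei of this age, 1064 met the rule, or 0.530% (95% exact binomial interval, 0.498 to 0.562%), out of 547805 nuclei of all ages. The UMIs of these 6 genes and the inferred age selected the nuclei, so the nuclei were chosen by these values and the levels of the 6 genes in them are a description without a test. The nuclei were compared with the 198322 nuclei of the same age that held no repo UMI.

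All nuclei came from untreated Canton S (wild-type) embryos, which were collected in 11 overlapping windows from 0 to 20 h after egg laying, flash frozen, and processed as nuclei by sci-RNA-seq3, a method that labels each nucleus by successive rounds of well-specific indexing. Nuclei of several windows were processed together in each of 7 experiments, and the age of each nucleus was inferred by the study from its UMI counts with a neural network. Each experiment was therefore taken as 1 replicate in the comparisons of classes of nuclei. Since the labels do not say that the experiments used separate embryo collections, the spread between experiments may be technical. The p-values of the class comparisons rest on this spread, which the tests estimate in part from other genes. Those of the age tests rest on the spread between age bins, which share libraries within 1 experiment.

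Glia support neurons, supply them with nutrients, clear their transmitters and remove their debris. In the fly embryo, the transcription factor gcm starts glial fate, and repo, a homeodomain transcription factor, then maintains it in nearly all glia except those of the ventral midline. Surface glia seal the nervous system with septate junctions and form the blood-brain barrier. Cortex glia wrap the cell bodies of neurons, astrocyte-like glia enter the neuropil and take up glutamate and GABA, and other glia ensheath axon tracts. The partner genes mark different kinds of glia. moody encodes a G protein-coupled receptor of the blood-brain barrier, loco a regulator of G protein signalling, wrapper an immunoglobulin-family surface protein of midline and cortex glia, nrv2 a beta subunit of the Na+/K+-ATPase, and Eaat1 a glutamate transporter of astrocyte-like glia. loco and nrv2 are also used in other tissues of the embryo.

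Of the 1064 repo and partner nuclei, 32.2% came from experiment 1, 3.57% (38 nuclei) from experiment 3 and 63.8% from experiment 10. Experiments 2 and 11 gave 3 and 1, and experiments 4 and 12, with 48 and 51 nuclei of this age, gave 0, which allows shares of up to 7.40% and 6.98% (exact binomial upper bounds). Comparisons used experiments 1, 3 and 10, which held 1060 of the nuclei. The rule picked deeper nuclei. Their median number of UMIs was 1.46 times that of the comparison nuclei in experiment 1, 1.66 times in experiment 3 and 4.60 times in experiment 10, where it reached 1735 UMIs. Nuclei under 500 UMIs made up 51.3%, 42.1% and 19.3% of the repo and partner nuclei and 82.8%, 77.3% and 69.5% of the comparison nuclei in the same order. Nuclei with at least 2000 UMIs made up 18.1%, 26.3% and 46.2% of the repo and partner nuclei in experiments 1, 3 and 10, and 0.875%, 1.05% and 3.72% of the comparison nuclei. The median share of UMIs on ribosomal genes was also higher, at 3.53% against 2.42%, 1.12% against 0.542% and 8.66% against 7.85% in the same order. The sums over the repo and partner nuclei held 424125, 55285 and 1615441 UMIs, so that values of experiment 3 are the least precise. No cell name occurred more than once, and 2 nuclear barcodes without their well name were found in more than 1 experiment.

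The share of nuclei that met the rule moved with this depth. It was 0.660% at 10 to 12 h, 0.248% at 12 to 14 h, 0.293% at 14 to 16 h, 0.560% at 16 to 18 h and 1.95% at 18 to 20 h. After each nucleus had been thinned at random to 250 UMIs, 0.124% of nuclei still met the rule, and the 5 age bins ranged from 0.108 to 0.171%. In experiments 1, 3 and 10 the thinned shares were 0.126%, 0.0654% and 0.137%, against 0.343%, 0.166% and 0.876% before thinning. At equal depth the shares at 10 to 12 h and 18 to 20 h were 0.137% and 0.171%.

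**Figure D1:**
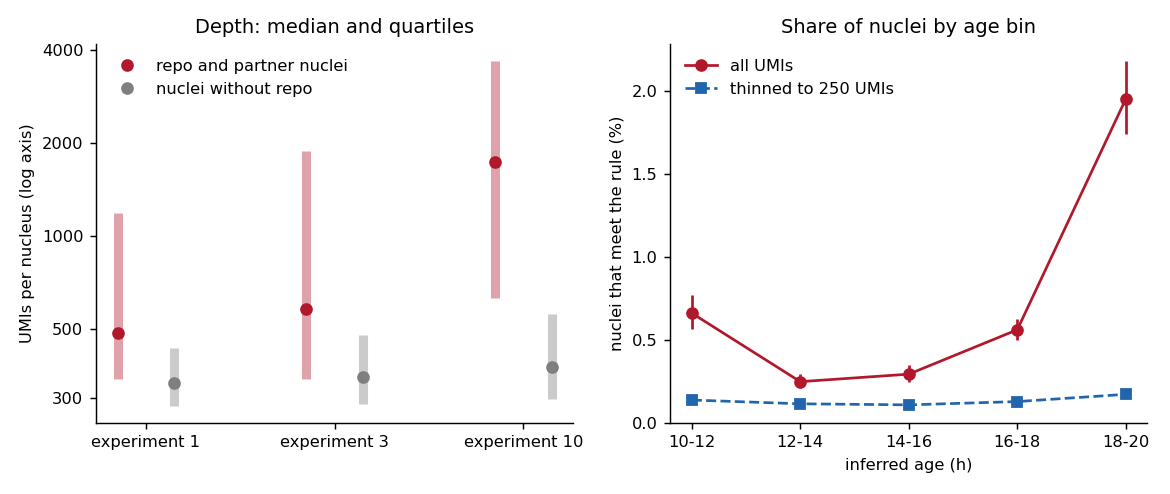
The left panel plots UMIs per nucleus on a log axis, with the median as a point and the quartiles as a bar, for repo and partner nuclei and for nuclei without repo in experiments 1, 3 and 10. The right panel plots the share of nuclei that met the rule in each 2-h bin of inferred age, with exact binomial 95% intervals (counting error only) on the unthinned shares, which reach 1.95% at 18 to 20 h while the shares after thinning to 250 UMIs stay between 0.108 and 0.171%.

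Whether the rule found glia was examined before any other comparison. repo was rare. Over all nuclei of this age it stood at 27.7 CPM (the gene's UMIs scaled to 1000000 UMIs of the summed nuclei), and 973 of the 1064 selected nuclei held a single repo UMI, 84 held 2 and 7 held more. repo UMIs also lay in nuclei that carried at least 5 UMIs of other cell types' markers. repo stood at 36.5 CPM in nuclei so marked for muscle (2.48% with a repo UMI, median depth 1.28 times that of all nuclei), at 32 CPM in those marked for neurons (3.37%, 1.59 times) and at 35.8 CPM in those marked for cuticle-secreting epidermis (2.24%, 1.21 times). Over all nuclei of experiments 1, 3 and 10 the share with a repo UMI was 1.28% at a median of 350 UMIs, which is below the shares in these marked nuclei, so that a repo UMI alone was not read as repo expression. Of the 1064 selected nuclei, 67.9% were marked for muscle, 41.4% for neurons and 67.8% for epidermis by the same criterion, and deep nuclei reach it more easily. Of all 200433 nuclei of these experiments, 61368 reached it for muscle, 19280 for neurons and 69504 for epidermis. Their median was 350 UMIs, against 1022 UMIs for the selected nuclei.

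The partner genes were then compared between all repo nuclei and nuclei without repo of the same experiment, age bin and depth. In experiment 1, 44.4% of 773 repo nuclei held a UMI of at least 1 partner, against 34.4% of the depth-matched nuclei. In experiment 3 the shares were 40.9% of 93 and 28%, and in experiment 10 they were 39.9% of 1701 and 37%. Much of the requirement for a partner was thus met at the depth of these nuclei without repo. These are the genes of the rule, so the shares are a description without a test. The exact intervals cover counting error among the nuclei of 1 experiment only. moody was more frequent with repo in experiments 1 and 3, with intervals that do not overlap. moody was found in 11.5% of repo nuclei (exact interval 9.35 to 13.98%) against 3.62% (2.75 to 4.68%) in experiment 1, and in 12.9% (6.85 to 21.5%) against 0.538% (0.0136 to 2.96%) in experiment 3. In experiment 10 the moody shares were 6.53% (5.40 to 7.81%) and 5.58% (4.84 to 6.41%), with intervals that overlap. nrv2 was found in 26.3% (23.2 to 29.5%) against 17.7% (15.85 to 19.7%) of nuclei in experiment 1, where the intervals are apart. They overlap for nrv2 in experiment 3, at 21.5% (13.7 to 31.2%) against 10.8% (6.69 to 16.1%), and in experiment 10, at 26.9% (24.8 to 29.04%) against 24.3% (22.8 to 25.7%). loco was found in 13.8% against 13.7%, 21.5% against 18.8% and 14% against 15.5% of nuclei in experiments 1, 3 and 10, and the intervals overlap in all 3. wrapper was at 7.24% against 6.34% in experiment 1, at 2.15% against 2.69% in experiment 3 and at 6.41% (5.29 to 7.68%) against 4.79% (4.10 to 5.56%) in experiment 10.

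**Figure D2:**
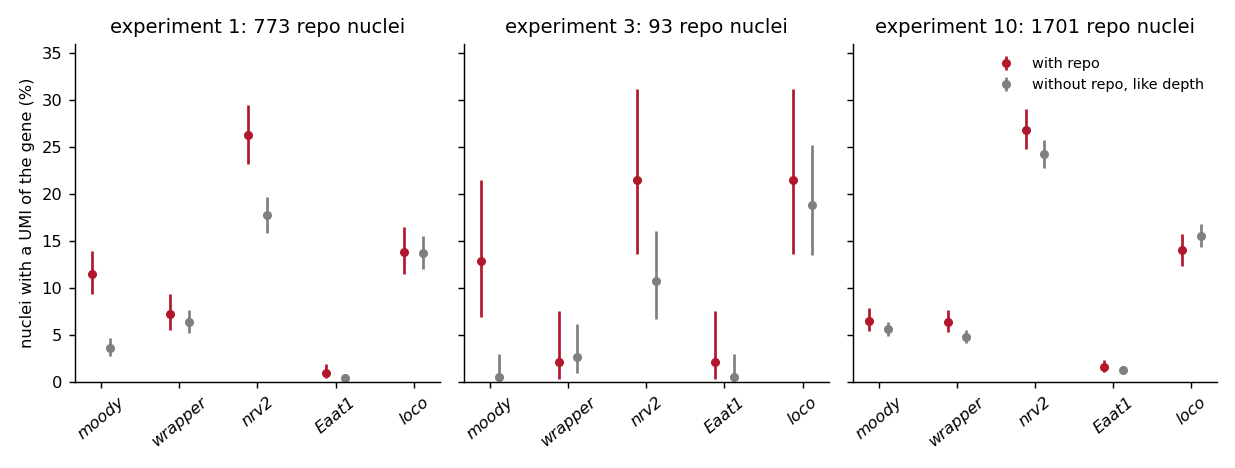
Each panel plots, for 1 experiment, the percent of nuclei with a UMI of each partner gene among nuclei with repo and among depth-matched nuclei without repo, with exact binomial 95% intervals that cover counting error only. The genes are those of the rule, so the shares are a description without a test. moody was more frequent with repo in experiments 1 (11.5% against 3.62%) and 3 (12.9% against 0.538%). In experiment 10 the intervals overlap (6.53% against 5.58%).

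Among the selected nuclei, nrv2 met the rule in 683 (64.2%), loco in 34.4%, moody in 20.1%, wrapper in 15.7% and Eaat1 in 3.38%. In 747 nuclei a single partner gene was present. nrv2 alone accounted for 39.1% of all selected nuclei and loco alone for 16.3%. The order of the partners followed their levels over all nuclei of this age, which were 416.2 CPM for nrv2, 272.9 CPM for loco, 71.1 CPM for moody, 48.2 CPM for wrapper and 8.59 CPM for Eaat1.

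As a further check, 15 glial genes that the rule did not use were summed (alrm, Gat, Gs2, Eaat2, gb, Cyp4g15, zyd, Mdr65, drpr, ana, axo, bdl, vir-1, GLaz and NLaz). Not all of them are confined to glia, and the authors also report drpr in plasmatocytes, a kind of hemocyte. Shallow nuclei carried more of them than the comparison nuclei, and deep nuclei differed less. In nuclei under 500 UMIs the 15 genes summed to 2034, 2256 and 1439.5 CPM in the repo and partner nuclei of experiments 1, 3 and 10, against 853, 734 and 709.6 CPM in the comparison nuclei, which is 2.39, 3.07 and 2.03 times as much. Experiment 3 rests on 16 such repo and partner nuclei. From 500 up to 2000 UMIs the ratios were 2.07, 5.62 and 1.31, where experiment 3 rests on 12 nuclei. At 2000 UMIs or more the ratios were 1.40, 0.758 and 1.07, where experiment 3 rests on 10 nuclei. Over all depths the sums were 1165 against 825 CPM in experiment 1, 1320 against 728 CPM in experiment 3 and 679.7 against 654.7 CPM in experiment 10. Against depth-matched nuclei the ratios over all depths were 1.80, 1.69 and 1.13 in experiments 1, 3 and 10. They were 2.15, 2.73 and 1.84 under 500 UMIs and 1.47, 0.622 and 1.07 at 2000 UMIs or more.

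The label of glia thus held in part. The summed nuclei of experiment 10 carried the glial genes at 1.04 times the level of all nuclei without repo and 1.13 times that of depth-matched ones. The shallow nuclei of all 3 experiments and the nuclei of 12 to 16 h of experiment 1 carried them at 2.03 to 3.07 times the level of nuclei without repo. The highest of these ratios rests on 16 nuclei of experiment 3. In experiment 1 the ratio was 1.02 at 10 to 12 h, 2.22 at 12 to 14 h, 2.85 at 14 to 16 h and 0.902 at 16 to 18 h. The nuclei of 12 to 16 h, 56.3% of those of experiment 1, had a median of 400 UMIs, and those of 10 to 12 h and 16 to 18 h had medians of 686 and 1048 UMIs, so that age and depth move together here and cannot be told apart. In experiment 10 no bin exceeded 1.29. The nuclei are called repo and partner nuclei below.

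**Figure D3:**
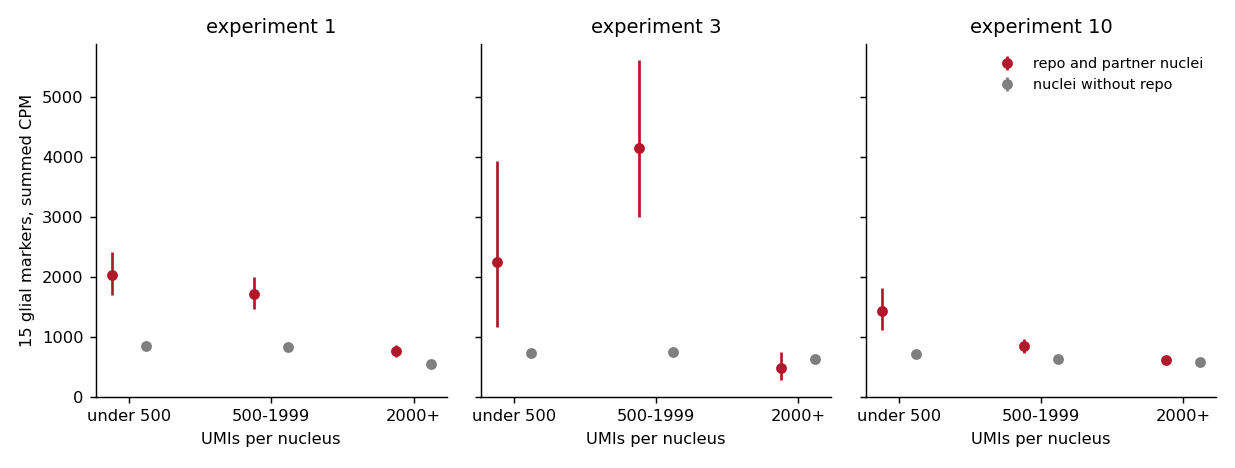
Each panel plots, for 1 experiment, the summed CPM of the 15 glial genes that took no part in the rule against the UMIs per nucleus, for repo and partner nuclei and for nuclei without repo, with 95% Poisson intervals that cover counting error only. Under 500 UMIs the repo and partner nuclei lie at 2034, 2256 and 1439.5 CPM, above the 853, 734 and 709.6 CPM of the other nuclei, and at 2000 UMIs or more the sets approach each other.

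The levels of the 6 genes of the rule describe the selection. repo, on chromosome arm 3R (18236192 to 18239602, plus strand), stood at 884, 759.7 and 458.7 CPM in the repo and partner nuclei of experiments 1, 3 and 10, and at 0 in the comparison nuclei by construction. moody, on the X chromosome (2044292 to 2050120, minus strand), stood at 381.96, 343.7 and 120.1 CPM against 66.2, 55.4 and 76.3 CPM in comparison nuclei drawn to the same age distribution. nrv2 stood at 1127, 886 and 612.2 CPM against 428.6, 309.96 and 432.01 CPM. All 3 genes were lowest in experiment 10, where the nuclei were deepest. wrapper stood at 190.98, 54.3 and 76.8 CPM against 54.4, 27.7 and 48.4 CPM. loco stood at 396.1, 651.2 and 263.7 CPM against 287.4, 376.4 and 191.9 CPM. Eaat1 was scarce, with 16.5, 108.5 and 16.7 CPM against 3.75, 5.54 and 14.3 CPM, and a single nucleus held 5 of its 40 UMIs.

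Genes that differ between repo and partner nuclei and nuclei without repo were sought in sums of UMIs, with 10 comparison nuclei drawn for each selected nucleus in the same experiment and age bin. Deep nuclei weigh most in such sums. Selected nuclei under 500 UMIs gave 61941 of the 424125 UMIs in experiment 1 and 47933 of the 1615441 in experiment 10. The fits and list medians thus mostly describe the deeper selected nuclei. Few genes differed. The neprilysin-like gene Nepl15, the uncharacterized gene CG32032 and the transcription factor gene pdm3 rose, and the fat body gene apolpp, the muscle gene bt, the germline gene dhd and the heat-shock RNA lncRNA:Hsromega were lower. By edgeR's quasi-likelihood test, 27 of 7006 genes outside the rule passed an adjusted p of 0.05 (0.385% of genes tested), 6 higher (0.0856%) and 21 lower (0.3%) in the repo and partner nuclei. With comparison nuclei matched on depth as well, 33 of 7095 genes passed (0.465%), 4 higher (0.0564%) and 29 lower (0.409%), and these 7 genes were called in both. Scaling by library sizes alone gave 27 calls with 12 higher and 15 lower. In summed UMIs, fewer cells of a type and less RNA per cell cannot be told apart. The calls depend on the experiments. Without experiment 1 no gene passed by edgeR (57 had an unadjusted p under 0.05), without experiment 3 there were 16 calls and without experiment 10 there were 2, while DESeq2 called 0 with all experiments (3.1% of genes had an unadjusted p under 0.05). Without the nuclei of 18 to 20 h, edgeR called 2.72% of 5952 genes, 0.487% higher (29 genes) and 2.23% lower.

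Nepl15 differed most. This gene on 3R (22763960 to 22766172, minus strand) encodes a protein of the neprilysin peptidase family. It stood at 271.1, 488.4 and 29.1 CPM in the repo and partner nuclei of experiments 1, 3 and 10, against 21.2, 0 and 26.1 CPM in the comparison nuclei and 16.2, 15.3 and 19.7 CPM in the depth-matched ones. The levels do not overlap between the sets, as for 7.82% of all genes tested and 4.25% in this direction, but experiment 10 differed little. Each SE given here and below was derived from the test statistic, whose spread is shared in part across genes. It is not the spread of a single gene over the experiments, which for Nepl15 is wide. The log2 difference was 2.42 ± 0.36 (SE, n = 3 experiments, edgeR adjusted p = 7.7e-08), and 2.68 ± 0.47 with depth-matched nuclei (adjusted p = 0.00148). Without experiment 1 it was 2.08 and without experiment 10 it was 4.18, and neither passed (edgeR adjusted p = 1.00 and 0.108).

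CG32032, on 3L (9093053 to 9094856, plus strand), was at 183.9, 54.3 and 21.7 CPM against 21.2, 5.54 and 19.1 CPM, again without overlap and with a small difference in experiment 10. Its log2 difference was 1.68 ± 0.42 (edgeR adjusted p = 0.0294), and 2.12 ± 0.50 (adjusted p = 0.0388) with depth-matched nuclei. pdm3, which encodes a POU-domain transcription factor (2R, 8327490 to 8396280, plus strand), was at 247.6, 922 and 58.2 CPM against 102.5, 166.1 and 51.3 CPM, higher in each experiment although the ranges overlap. Its log2 difference was 1.09 ± 0.29 (edgeR adjusted p = 0.0441), and 1.58 ± 0.29 (adjusted p = 0.00345) with depth-matched nuclei. CG32032 passed without experiment 3 (1.62) and not without experiment 1 (0.69) or 10 (3.05), and pdm3 passed in none of these 3 fits (0.71 to 1.64).

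zyd encodes a K+-dependent Na+/Ca2+ exchanger of cortex glia and lies on the X chromosome (23022898 to 23035550, plus strand). It was at 202.8, 488.4 and 63.8 CPM in the repo and partner nuclei against 58.1, 99.6 and 60.8 CPM in the drawn comparison nuclei, a log2 difference of 1.13 ± 0.31 that did not pass (edgeR adjusted p = 0.0654). Against depth-matched nuclei, at 57.1, 72.6 and 51.6 CPM, it was higher by 1.37 ± 0.32 and passed (edgeR adjusted p = 0.0344). zyd is 1 of the 15 glial genes above and the only one of them called in either of these fits.

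The other 3 genes called higher passed against the drawn comparison nuclei alone. fipi, an immunoglobulin-domain gene (2L, 4734592 to 4794044, minus strand), was at 259.4, 742 and 66.2 CPM against 123.1, 99.6 and 48.6 CPM, with a log2 difference of 1.17 ± 0.29 (edgeR adjusted p = 0.0312). Act42A, a cytoplasmic actin (2R, 6013910 to 6015689, minus strand), was at 1162, 886 and 1156 CPM against 502.4, 127.3 and 1033 CPM, with 1.07 ± 0.27 (edgeR adjusted p = 0.0293). The antisense RNA asRNA:CR46354 was at 91.95, 54.3 and 11.1 CPM against 9.37, 16.6 and 7.36 CPM, with 1.84 ± 0.49 (edgeR adjusted p = 0.0441). It overlaps the gene side-IV on the other strand, and the sources used here do not say whether counting used strand, so its reads cannot be told apart from those of side-IV. fipi and Act42A passed in no fit that left out an experiment, and asRNA:CR46354 passed without experiment 3 alone.

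**Figure D4:**
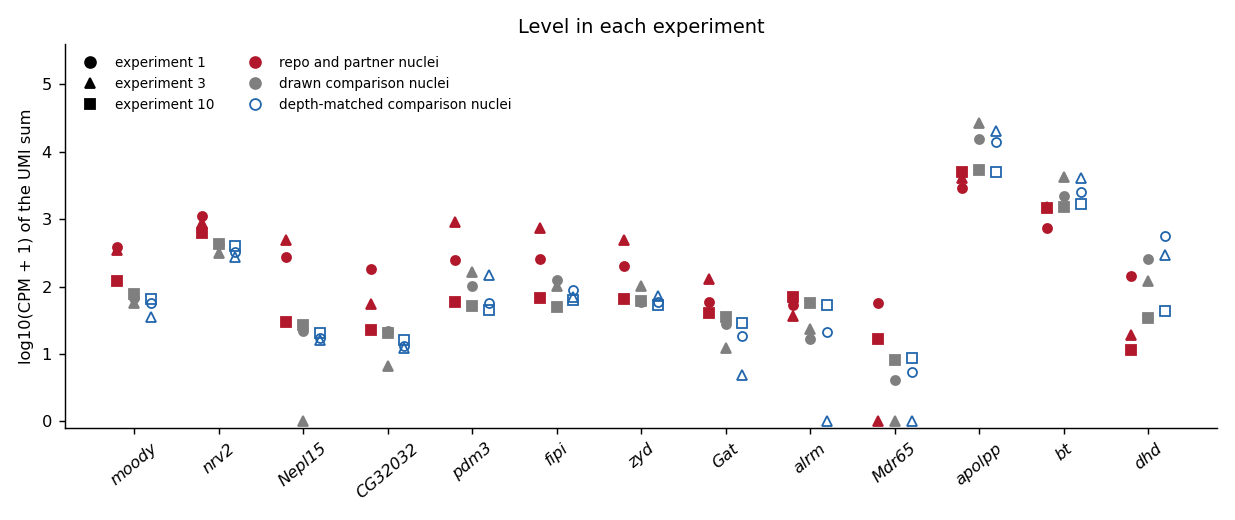
The plot shows log10(CPM + 1) of the UMI sum for 13 genes, with a symbol for each experiment (1, 3 and 10) and a colour for repo and partner nuclei, comparison nuclei drawn to the same ages, and depth-matched comparison nuclei. Nepl15, pdm3 and zyd lie well above the other sets in experiments 1 and 3 and close to them in experiment 10, and apolpp lies lower in experiments 1 and 3.

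Several genes called lower are known from other tissues. apolpp, which encodes the apoprotein of lipophorin and is made in the fat body (chromosome 4, 1060969 to 1077273, plus strand), was at 2898, 4034 and 5046 CPM against 15545, 26723 and 5339 CPM. Its log2 difference was -1.91 ± 0.29 (edgeR adjusted p = 7.7e-08), and -1.61 ± 0.26 (adjusted p = 0.000656) with depth-matched nuclei. It was called without experiment 10 (-2.71) and not without experiment 1 (-1.58) or 3 (-1.25). Apoltp, another lipid transfer protein of the fat body, was lower by -1.13 ± 0.29 on the log2 scale (edgeR adjusted p = 0.0341). bt, the giant muscle protein projectin, was at 749.8, 1537 and 1450.4 CPM against 2218, 4218 and 1511 CPM, with -1.14 ± 0.26 (edgeR adjusted p = 0.00843) and -1.15 ± 0.19 (adjusted p = 0.00119) with depth-matched nuclei. dhd, a germline thioredoxin, was at 141.5, 18.1 and 10.5 CPM against 258.7, 121.8 and 33.6 CPM, with -1.37 ± 0.35 (edgeR adjusted p = 0.0341).

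Among the other genes called lower, CG32603, CG7465, CG7763, dnr1, CG13731, asRNA:CR44894, frm and CG4306 had log2 differences from -1.92 to -1.24. asRNA:CR44894 overlaps RhoU, Ypel and other genes, from which its reads cannot be told apart. Against depth-matched nuclei the lowest were CG18180 (-4.05), CG14292 (-2.92), yl, the vitellogenin receptor (-2.50), Mur18B (-2.44) and bcd, the maternal anterior determinant (-2.26), followed by dhd (-2.15), Jabba (-1.92), apolpp (-1.61), Hsp26 (-1.55) and glu (-1.37). The muscle genes Mhc (-0.73) and sls (-0.85) were also called lower there. Of the genes named here from the depth-matched fit, apolpp and dhd alone were also called against the drawn nuclei. bcd stood higher in the depth-matched nuclei (134.3, 57.3 and 27.7 CPM) than in the drawn ones (23.7, 11.1 and 13.5 CPM), so that its call rests on the matched set.

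Lists of genes were read by their counts and medians beside those of all genes tested, whose median log2 difference was -0.01 against both comparison sets. Of all genes tested, edgeR called 0.385% against the drawn nuclei and 0.465% against depth-matched ones, and DESeq2 called 0 against the drawn nuclei. Beside these shares, 0 calls in a short list tell little about its genes. The lists were chosen with earlier results of these data known. Of the 15 glial genes outside the rule, 11 were tested against the drawn nuclei, none passed by edgeR or by DESeq2, 8 were above 0 and the median was 0.27. Against depth-matched nuclei the median was 0.57, with 9 of 11 above 0 and zyd called. Mdr65, an ABC transporter of the blood-brain barrier, was at 56.6, 0 and 15.5 CPM against 3.12, 0 and 7.15 CPM and was too low to be tested. Cyp4g15, a cytochrome P450 of cortex glia, was at 16.5, 36.2 and 9.29 CPM against 1.25, 0 and 6.94 CPM and was not tested either. Gat, the GABA transporter of astrocyte-like glia, was at 58.9, 126.6 and 39.6 CPM against 26.9, 11.1 and 34.9 CPM, higher in each experiment, with a log2 difference of 0.83 ± 0.40 (edgeR adjusted p = 0.676). alrm, a leucine-rich repeat gene of astrocyte-like glia, was at 51.9, 36.2 and 69.9 CPM against 15.6, 22.1 and 56.6 CPM (0.78 ± 0.40, edgeR adjusted p = 0.71). Gs2, glutamine synthetase, was at 155.6, 144.7 and 107.1 CPM against 106.2, 83.03 and 107.004 CPM. drpr, the engulfment receptor Draper, was at 207.5, 72.4 and 154.1 CPM against 241.2, 160.5 and 171.96 CPM, lower in each experiment and not called.

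Of 17 genes of the blood-brain barrier and septate junctions, 15 were tested and 0 passed by edgeR and DESeq2. Of all genes tested, 0.385% passed by edgeR and 0 by DESeq2, which bears on each list below. Their median log2 difference was 0.12 against the drawn nuclei, with 12 above 0, and 0.37 against depth-matched nuclei, with 13 above 0. The claudin pck was at 235.8, 198.97 and 133.1 CPM against 171.2, 60.9 and 109.9 CPM, and the neurexin Nrx-IV at 318.3, 325.6 and 272.99 CPM against 225.6, 199.3 and 247.2 CPM. Both were higher in each experiment, as were 17.7% of all genes tested, and neither passed (edgeR adjusted p = 0.838 and 0.937). These junction genes are also used in epidermis and trachea. The 7 transcription factors of glial fate gave 6 tested genes with a median of 0.14, 4 above 0 and 2 below, and 0 called. The ETS factor gene pnt was the lowest, at 495.1, 796 and 329.3 CPM against 553.6, 924 and 354.9 CPM (-0.27 ± 0.26), and ttk stood at -0.01, ct at 0.11 and zfh1 at 0.17 on the log2 scale. gcm was at 63.7, 90.4 and 48.3 CPM against 38.1, 16.6 and 46.5 CPM (0.50 ± 0.39), and pros, which is also active in neural progenitors, at 247.6, 596.9 and 217.9 CPM against 169.3, 210.3 and 172.6 CPM (0.60 ± 0.28). Engulfment genes had a median of 0.13, innexins of 0.04, ion and volume regulators of -0.09, glycolysis and sugar transport of 0.01, lipid handling of -0.23 and FGF, EGF, Notch and guidance receptors of -0.18, with 0 of their genes called by either tool. Laminins, collagens and integrins had a median of -0.39 with 11 of 12 below 0, but of -0.04 against depth-matched nuclei.

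Markers of other cell types did not disappear from the repo and partner nuclei. The summed markers of neurons stood at 1.04, 0.748 and 1.01 times their level in all nuclei without repo of experiments 1, 3 and 10. Those of muscle stood at 0.922, 0.558 and 1.01 times, those of epidermis at 0.948, 1.05 and 0.990 times, and those of fat body at 0.151, 0.122 and 0.880 times. Against depth-matched nuclei the ratios were 1.35, 1.04 and 0.955 for neurons and 0.599, 0.603 and 0.951 for muscle. They were 1.22, 1.34 and 1.06 for epidermis and 0.212, 0.209 and 0.986 for fat body. The 18 neuron genes had a median of -0.17 against the drawn nuclei and 0.16 against depth-matched ones, and elav, the pan-neuronal RNA-binding protein, was at 903, 1935 and 1225 CPM against 738, 1268 and 1038 CPM. The 6 tested neural progenitor genes had medians of 0.45 and 0.34 and none was below 0. The 13 muscle genes had medians of -0.40 (1 called lower, bt) and -0.34 (3 called lower, bt, Mhc and sls), and 9 epidermis genes of -0.23 and 0.16. The 3 tested fat body genes had medians of -1.13 and -0.68, with apolpp and Apoltp called lower against the drawn nuclei and apolpp against the depth-matched ones. Of 10 hemocyte genes 5 were tested, with medians of -0.53 and -0.22. The summed hemocyte markers stood at 0.350, 0.983 and 0.927 times their level in all nuclei without repo of experiments 1, 3 and 10. Against depth-matched nuclei they stood at 0.534, 1.15 and 1.07 times. The hemocyte genes eater and He had no UMI in the repo and partner nuclei, and no lack of hemocyte RNA was read from this. The part of these other cell types in the differences above was not tested.

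Narrower sets of nuclei, whose selection leaned less on depth, gave no call, and gene lists moved in different directions in them. Nuclei that met the rule after thinning to 250 UMIs gave 0 calls of 3091 genes by edgeR (9.77% had an unadjusted p under 0.05), and 8 tested glial genes outside the rule had a median log2 difference of 1.47, with 7 above 0, beside -0.05 for all genes. Nuclei under 500 UMIs gave 0 calls of 2872 genes (7.73% had an unadjusted p under 0.05) and a median of 0.68 for the same list, with 5 of 8 above 0, beside 0.01. The transcription factors of glial fate had medians of -0.04 after thinning (3 of 6 below 0) and -0.17 under 500 UMIs (4 of 5 below 0), and engulfment genes of -0.49 and -0.31 (3 of 4 below 0 in both). Both fits rest on experiments 1 and 10, since experiment 3 had too few such nuclei. In them Nepl15 differed by 4.18 and 4.10, zyd by 1.91 and 2.09 and pdm3 by 2.14 and 2.07 on the log2 scale. The opposite choice, nuclei of at least 500 UMIs, gave Nepl15 a difference of 1.42 (edgeR adjusted p = 0.000927).

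The course of the repo and partner nuclei with age was followed over 8 sums, 4 bins of 2 h of experiment 1 from 10 to 18 h and 4 bins of experiment 10 between 10 and 20 h. Among the named genes the cuticle genes Cpr56F, obst-E, TwdlC and TwdlF rose and the cyclin genes CycA and CycE fell. None of the 9 tested glial genes outside the rule passed. At the share of 5.66% among all genes, a list this short may well hold none. By edgeR's test of the slope with experiment as a block, 190 of 3356 genes passed (5.66%), 5.04% rising and 0.626% falling (21 genes). DESeq2 called 7.09%. Age was inferred from the same UMI counts, so genes that inform the age must follow it. A fit over the collection windows, which does not use the inferred age in the slope, called 33 of 2764 genes (1.19%), all rising, so that no falling gene was called there. Without experiment 10 there were 33 calls, all rising, without experiment 1 5.28% of 4809 genes were called, and without the bin of 18 to 20 h there were 96 calls. Bins of 1 experiment come from the same libraries, yet each bin entered as a separate observation. The p-values of these slopes therefore rest on the spread between bins and not between experiments.

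TwdlF, a Tweedle protein of the larval cuticle, rose by 0.84 ± 0.08 log2 units per hour (edgeR adjusted p = 8.53e-05). In experiment 1 it was at 33.4, 74.5, 292.05 and 1771 CPM in the bins from 10 to 18 h, and at 13.3, 124.7, 337.5 and 1339.9 CPM in the comparison nuclei. In experiment 10 it was at 35.9, 161.2, 1136 and 1439 CPM in the bins of 10 to 12, 14 to 16, 16 to 18 and 18 to 20 h, and its collection-window slope was 0.73. The other genes with the steepest rises were Cpr56F (1.24 per hour), CG31626 (1.00), obst-E (0.96), Vajk4 (0.89), TwdlC (0.89), CG11584 (0.89) and CG15740 (0.88), of which Cpr56F, obst-E and TwdlC encode chitin-binding or other cuticle proteins. CycA, a mitotic cyclin, fell by 0.24 ± 0.04 log2 units per hour (edgeR adjusted p = 0.00362), from 592.5 to 148.2 CPM over the 4 bins of experiment 1 and from 534.7 to 161.2 CPM over those of experiment 10. Its comparison nuclei went from 450.3 to 140.4 CPM and from 698 to 179.3 CPM. The CycA call was lost without experiment 10 (-0.31) and over the collection windows (-0.17). link (-0.39), lmd, a transcription factor of myoblasts (-0.32), CycE (-0.28), Pen, an importin alpha (-0.28), Nurf-38 (-0.28), Nnp-1 (-0.26) and Ama (-0.24) were the other named falling genes.

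By list, 10 of 13 muscle genes, 4 of 15 neuron genes, 4 of 9 epidermis genes and 2 of 12 laminins, collagens and integrins passed as rising, against 0 of 9 glial genes outside the rule, by edgeR and beside 5.04% of all genes. Mhc, the muscle myosin heavy chain, went from 208.6 to 1974 CPM over the bins of experiment 1 (340.4 to 3429 CPM in the comparison nuclei), and nSyb, the neuronal synaptobrevin, from 41.7 to 208.8 CPM (25.96 to 153.1 CPM). The median slope was 0.25 per hour for muscle genes, 0.28 for neuron genes, 0.04 for glial genes and 0.00 for all genes.

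zyd, Mdr65 and alrm, glial genes outside the rule, did not change steadily from bin to bin in experiment 1. zyd was at 116.8, 566.04, 308.3 and 94.3 CPM in the repo and partner nuclei from 10 to 18 h, against 56.4, 82.2, 73.4 and 73.3 CPM in the comparison nuclei, and Mdr65 was at 8.35, 104.3, 210.9 and 20.2 CPM against 0.264, 3.94, 6.57 and 9.27 CPM. Nepl15 was at 100.1, 431.98, 925 and 114.5 CPM against 2.90, 15.3, 24.1 and 54.97 CPM. These genes were highest at 12 to 16 h, in the bins whose nuclei were shallowest, and lower in the bins before and after. alrm was at 0, 59.6, 194.7 and 33.7 CPM against 8.83, 19.4, 22.1 and 30.9 CPM. moody, a gene of the rule, was at 333.8, 789, 876 and 80.8 CPM against 75.5, 75.2, 70.4 and 60.2 CPM. The required partner UMI gives moody a higher CPM in shallower nuclei by construction, so its values describe the selection and no age course was read from them. In experiment 10, moody was between 111.04 and 148.8 CPM in all 4 bins, and alrm went from 8.99 and 0 CPM to 71.5 and 91.9 CPM while the comparison nuclei went from 13.6 and 29.8 to 53.8 and 74.4 CPM.

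**Figure D5:**
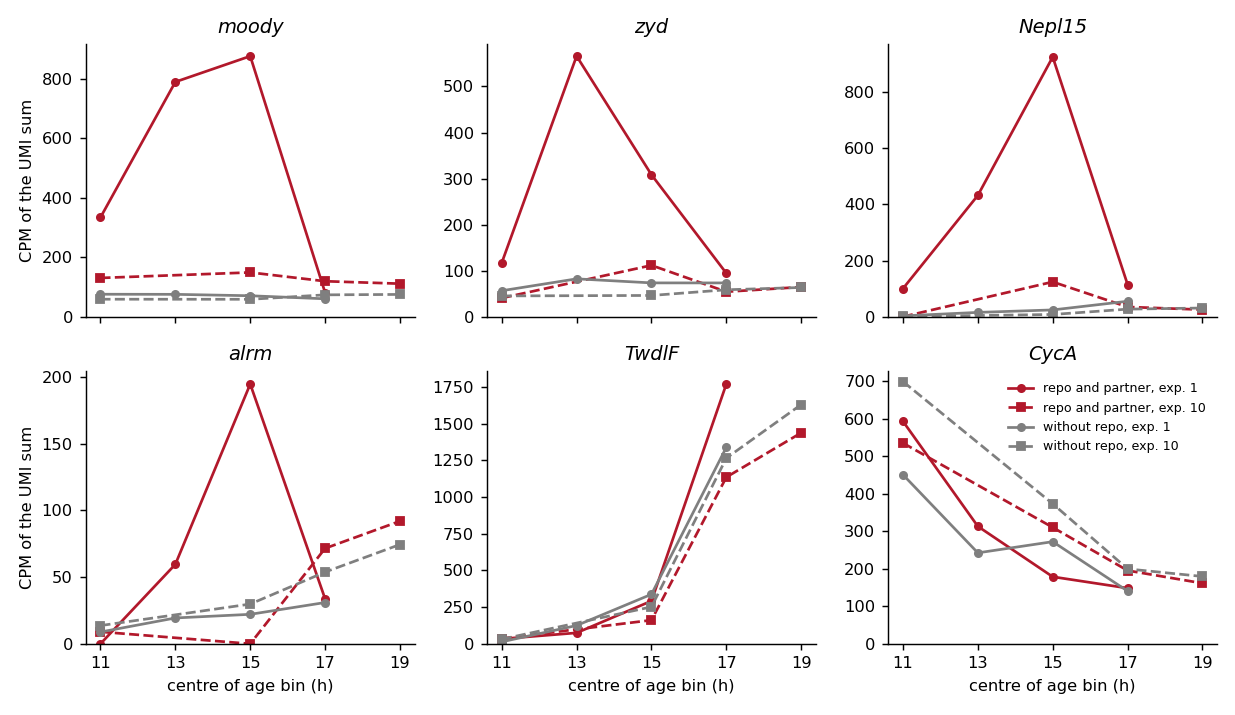
Each panel plots the CPM of 1 gene in the UMI sums of 2-h bins, placed at the bin centre, for repo and partner nuclei and nuclei without repo in experiments 1 and 10. zyd, Nepl15 and alrm are highest between 12 and 16 h in the repo and partner nuclei of experiment 1 (Nepl15 reaches 925 CPM), the bins with the shallowest nuclei, and moody is a gene of the rule. TwdlF rises and CycA falls in both sets.

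The difference between the slopes of repo and partner nuclei and of comparison nuclei was tested itself. Each bin again entered as a separate observation, so these p-values also rest largely on the spread between bins. By edgeR's interaction test, 3 of 7912 genes passed (0.0379%), 2 with a higher slope (0.0253%) and 1 with a lower slope (0.0126%) in the repo and partner nuclei. None passed without experiment 1 (6.49% of genes had an unadjusted p under 0.05) or without experiment 10 (1.32%). With depth-matched nuclei 0 of 4719 genes passed (2.31%). The 3 genes were not among those tested there, so that fit could not test them again. The lower slope was that of Nepl15, by -0.74 ± 0.13 log2 units per hour (edgeR adjusted p = 0.0132), whose comparison nuclei rose from 2.90 to 54.97 CPM in experiment 1 and from 0.70 to 30.9 CPM in experiment 10.

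Selected nuclei with different partner genes were compared. Nuclei with moody and without wrapper or Eaat1 (74 in experiment 1 and 90 in experiment 10) were set against nuclei with wrapper and without moody or Eaat1 (40 and 94). Outside the 2 genes that split them, no gene of 3301 passed by edgeR (0%), with 76 at an unadjusted p under 0.05, and none passed by DESeq2 (4). The blood-brain barrier and septate junction genes had a median log2 difference of 0.35 towards moody, with 11 of 14 above 0, beside 0.00 for all genes. pck was at 337.6 CPM in moody nuclei and 83.6 CPM in wrapper nuclei of experiment 1, and at 177.4 and 91.7 CPM in experiment 10, a log2 difference of 1.33 ± 0.43 (edgeR adjusted p = 0.999). Gli, the septate junction protein Gliotactin, was at 537.6 against 334.2 CPM and at 275.99 against 194.9 CPM (0.59 ± 0.30). zyd was at 387.6 against 350.9 CPM and at 86.7 against 53.5 CPM (0.41 ± 0.39). Eaat1 nuclei numbered 6, 2 and 14 in experiments 1, 3 and 10 and were too few for a sum.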

How the data were processed

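Single-nucleus RNA was measured by sci-RNA-seq3 in 7 experiments on whole embryos. The authors deposited counts of UMIs per gene and nucleus without normalization, the percent of UMIs on ribosomal protein genes and on mitochondrial genes, and a score for age, the hours inferred by their neural network. Per the submitters' processing notes, STAR 2.7.3a and the build dm6 (BDGP6) were used. The sources used here give neither the gene annotation nor the strand of counting. The authors removed nuclei outside limits on UMIs, genes and ribosomal share, and removed doublets with a modified DoubletFinder, so no caller was run again. Nuclei held 251 to 7497 UMIs, and intervals cover counting error only. Samples are PCR wells, and each well was mapped to its experiment.

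UMIs were summed per experiment and class, with 30 or more selected nuclei in each sum and 10 drawn or 5 depth-matched comparison nuclei per selected nucleus. Both classes of 1 experiment come from the same libraries and embryos, so experiment entered as a block. Tests used edgeR 4.0.16 (filterByExpr, TMM factors, quasi-likelihood F test, Benjamini-Hochberg adjustment over all genes) with limma 3.58.1 in R 4.3.3, and DESeq2 1.42.0 as the other tool. Other values came from Python 3.11.15, NumPy 2.4.6, SciPy 1.17.1, pandas 2.3.3 and matplotlib 3.10.9. On simulated counts for 7012 genes, 31% of 2-fold and 90% of 4-fold changes were recovered in the class comparison, with 5 false calls. The simulation gave all genes a common dispersion and each changed gene the same fold in every experiment, so these rates need not hold for the real counts.

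Named genes were the 15 highest and 10 lowest log2 differences among genes with an adjusted p under 0.05, the same direction in every experiment and at least 50 CPM in the higher class, without transposons and the 6 genes of the rule, and 8 in each direction for age. bt, Apoltp, zyd and the genes named from the depth-matched fit or from lists fall outside it. The nuclei, lists and tests were chosen with earlier results of these data known. Of 224 symbols, 222 were found in Ensembl's BDGP6.54 gene set (release 115), which is placed on dm6. Counts of nuclei and of called genes are given as percentages of their totals in many places. Alternatives were other scalings, filters, tools, depths, age ranges and omitted experiments. The fits under 500 UMIs, after thinning, and of depth-matched slopes were chosen after seeing the data.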

Additional observations from a re-analysis of the deposited data

Results flagged for a closer look

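The slope with age differed between repo and partner nuclei and nuclei without repo for 3 genes by edgeR's interaction test. The test counted bins of the same libraries as separate observations. CG7017 had a slope higher by 1.56 log2 units per hour in the repo and partner nuclei (SE 0.31, adjusted p = 0.048), where its UMIs lay in the bins of 16 to 18 h (10.8 CPM) and 18 to 20 h (29.8 CPM) of experiment 10 and the other 6 sums held 0. Jon99Fii, of a family of serine proteases of the gut, had a slope higher by 1.07 (SE 0.21, adjusted p = 0.048), with 20.2 CPM at 16 to 18 h in experiment 1 and with 6.50 and 10.7 CPM in the last bins of experiment 10. Nepl15 had a slope lower by -0.74 (SE 0.13, adjusted p = 0.0132). All 3 lost the call without experiment 1 and without experiment 10, and CG7017 went to 1.22 and -0.25 in these fits. The fit with depth-matched comparison nuclei called no gene, but these 3 genes were not tested in it.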

How the results depend on the processing

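The 0.385% of genes (27) called between repo and partner nuclei and comparison nuclei became 2.72% at 10 to 18 h, 0.135% (4 genes) with 2 or more repo UMIs, 0.771% (62) with at least 500 UMIs, 0.285% (43 of 15094) with no filter on low counts, 1.34% with pairs per experiment and age bin, and 0 with DESeq2, with no replicate block, under 500 UMIs and with the rule met after thinning. Leaving out an experiment gave 0 to 0.197% (0 to 16 genes). The fits with 2 or more repo UMIs and at least 500 UMIs used experiments 1 and 10 alone. The fit with pairs per age bin and the age fits counted bins of the same libraries as separate observations. The 5.66% of genes with an age trend became 1.19% over collection windows, 3.13% of 12107 genes with no filter, 3.64% with no replicate block and 3.15% without the bin of 18 to 20 h, and 1.58 to 5.28% with an experiment left out. The 0.0379% (3 genes) whose slopes differed became 0.0126% (1) with library sizes alone and 0 with an experiment left out. It was also 0 with depth-matched nuclei, where these 3 genes were not tested. Between moody and wrapper nuclei, no filter gave 0.0481% (5 genes) in place of 0, and leaving out an experiment could not be fitted since 2 were used. The share of nuclei, 0.530%, became 0.124% after thinning, 1.58% among nuclei with at least 500 UMIs, and 0.312 to 0.715% with an experiment left out.

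Of the values for genes named in the class comparison, 37.6% kept their direction and call under an alternative, 61.5% lost the call and 2 changed direction, CG13731 (0.62 after thinning) and CG4306 (0.44 under 500 UMIs). For the age trend 85 of 110 kept the call and 25 lost it. For the slopes 1 of 9 kept it, 7 lost it and CG7017 changed direction (1.22 without experiment 1 and -0.25 without experiment 10). The cause was not tested. As to depth, 973 of the 1064 nuclei held a single repo UMI.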

Other observations

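A few repo and partner nuclei had an inferred age far from their collection window. Experiment 10 held 1 nucleus of the 0 to 2 h window and 3 of the 1 to 3 h window with an inferred age of 10 h or more, experiment 2 held 3 of the 3 to 7 h window, and experiment 11 held 1 of the 1 to 3 h window.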
